A study of Mus musculus with 12 samples.

Results

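Methoxyacetic acid (MAA) at 5 mM was left on mouse TM3 Leydig cells for 24 h, and the treated RNA was set against RNA of cells that had been kept for 24 h in culture medium alone. The comparison rests on 2 of the 12 arrays of the series, those labelled with 5 mM and 24 h, and these 2 were a dye swap: MAA RNA was in the green channel of replicate 1 and in the red channel of replicate 2. The other 10 arrays, 2 for each of 1 mM and 5 mM at 3 h and 8 h and for 1 mM at 24 h, were used for the estimate of the spread and, for 5 mM at 3 h and 8 h and 1 mM at 24 h, for comparison. TM3 is a line derived from the testis of an immature Balb/c mouse, so every sample was the same cell line grown in the same serum-containing medium. Each array held RNA pooled from 3 cultures, and the second array of a treatment used a separate pool of 3 treated cultures. The errors below therefore measure the spread between pools and dyes and not between single cultures, and pool and dye cannot be told apart.

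MAA is the active metabolite of the solvent ethylene glycol monomethyl ether, and it harms spermatogenesis in rodents. It is known as an inhibitor of histone deacetylases, the enzymes that remove acetyl groups from histones, and as a compound that enhances the activity of several nuclear receptors. Leydig cells lie between the seminiferous tubules and make testosterone from cholesterol. At 24 h a response holds both genes that moved early and stayed changed and genes that moved late.

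The files gave the scanner's processed signal for 41174 probes, 60-mer oligonucleotides, of which 41173 had a ratio to test. Of the probes, 66.4% and 66.6% were well above background in the MAA channel of replicates 1 and 2, and 69.6% and 65.2% in the control channel. Median processed signals lay between 110 and 114 in all 4 channels, and no spot was saturated. A gene symbol could be given to 22147 probes, which named 16017 genes, and a gene was represented by its brightest probe unless stated. The Leydig label was weakly borne by its markers in this culture: of 7 Leydig markers, Hsd3b1 (a dehydrogenase of steroid synthesis) and Lhcgr (the luteinizing hormone receptor) were not well above background in any channel, and Nr5a1 (SF-1, the factor that drives steroidogenic genes) was so in only 1 control channel. The summed signal of the 7 markers was 675 and 644 in the MAA channels and 1141 and 986 in the control channels. Insl3 held most of each sum, with 372 and 370 with MAA against 868 and 739 in control. It was the only marker called down, while Cyp11a1 was called up and the other 5 were not called.

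MAA changed 2315 of 41173 probes, with 1586 higher and 729 lower than control. Calls needed a moderated p from limma, before adjustment, of under 0.005 and a ratio of over 2-fold, which 5.62% of the probes met (3.85% called up and 1.77% called down). The Benjamini-Hochberg adjusted p of a called probe was at most 0.0208. Increases made up 68.5% of the calls and were also the larger changes: 456 probes rose and 86 fell by over 4-fold, and 93 rose and 6 fell by over 8-fold. The median log2(MAA/control), the quantity called the log2 ratio below, was 1.58 over the probes called up and -1.29 over those called down. On both arrays separately 1933 of the called probes passed 2-fold. By genes, 837 were called up and 271 down, or 5.23% and 1.69% of the 16017 measured, and the median log2 ratio of all genes was 0.02. With normexp background correction and loess in place of the processed signals the calls fell to 881, with 675 up and 206 down. Without replicate 1 or without replicate 2 the calls were 2081 and 2055.

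**Figure D1:**
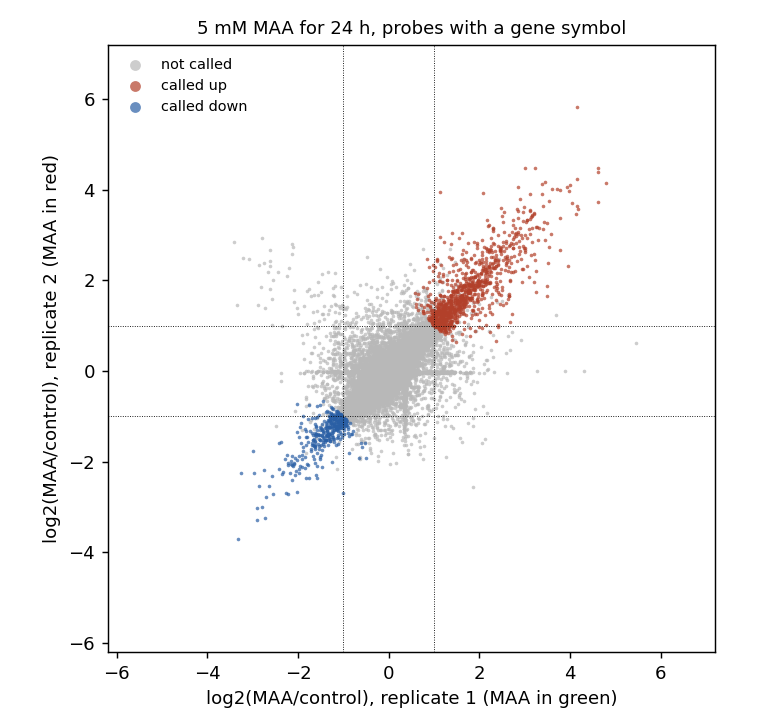
Log2(MAA/control) of each probe with a gene symbol on the array with MAA in green (horizontal axis) and on the array with MAA in red (vertical axis), after 24 h at 5 mM; colours mark the called probes and dotted lines 2-fold. Called probes lie in the upper right and lower left, where the dye-swapped arrays moved the same way, which a call largely requires. The upper right reaches farther from 0.

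The largest increases were in genes of unrelated function that the control cells expressed at a low level or at background. Olr1, the lectin-like receptor for oxidized low density lipoprotein, had signals of 2185 and 1900 with MAA against 137 and 110.2 in control, a log2 ratio of 4.05 ± 0.06 (SE, 2 arrays; adjusted p = 7.1e-07). Slc2a4, the insulin-responsive glucose transporter GLUT4, rose from 79.6 and 70.7 to 1261 and 1108 (3.98 ± 0.15). Srgn, the core protein of a proteoglycan of secretory granules, rose from 30.6 and 40.2 to 749 and 842 (4.50 ± 0.27). In all 3 genes the lowest MAA signal lay more than 8-fold above the highest control signal. The genes were named for the size of their increase, so this gap is a description. Best1, a chloride channel, was called by both of its probes, and the brighter one went from 91.0 and 63.8 to 1192 and 1030 (3.86 ± 0.26). Tmem255a had the highest log2 ratio of the genes whose control signal was well above background on both arrays, 4.55 ± 0.13, and its second probe was called up at 2.15.

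Dhh encodes desert hedgehog, the ligand by which Sertoli cells act on Leydig cell precursors in the testis. Its signal was 176 and 140 with MAA and 11.4 and 8.41 in control (log2 ratio 3.998 ± 0.26), where only 1 of the 2 control channels was well above background. For genes whose control signal failed to stand well above background on both arrays the ratio is a lower bound, taken against the dimmest signal that was. On that footing Mgarp, a mitochondrial protein gene, was at least 16.2-fold higher, Ceacam10, of the carcinoembryonic antigen family, at least 14.4-fold, Bcas1 at least 7.08-fold and Il15, a cytokine that sustains natural killer cells, at least 3.67-fold. Ablim3, an actin-binding LIM protein, was at least 15.5-fold higher by 1 of its 3 probes, while its brightest probe was lower by a log2 ratio of -0.61 (adjusted p = 0.071) and the other was not called. H2-Bl was at least 5.06-fold higher by a probe that is not its brightest, and the brightest of its 3 probes gave 0.74.

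**Figure D2:**
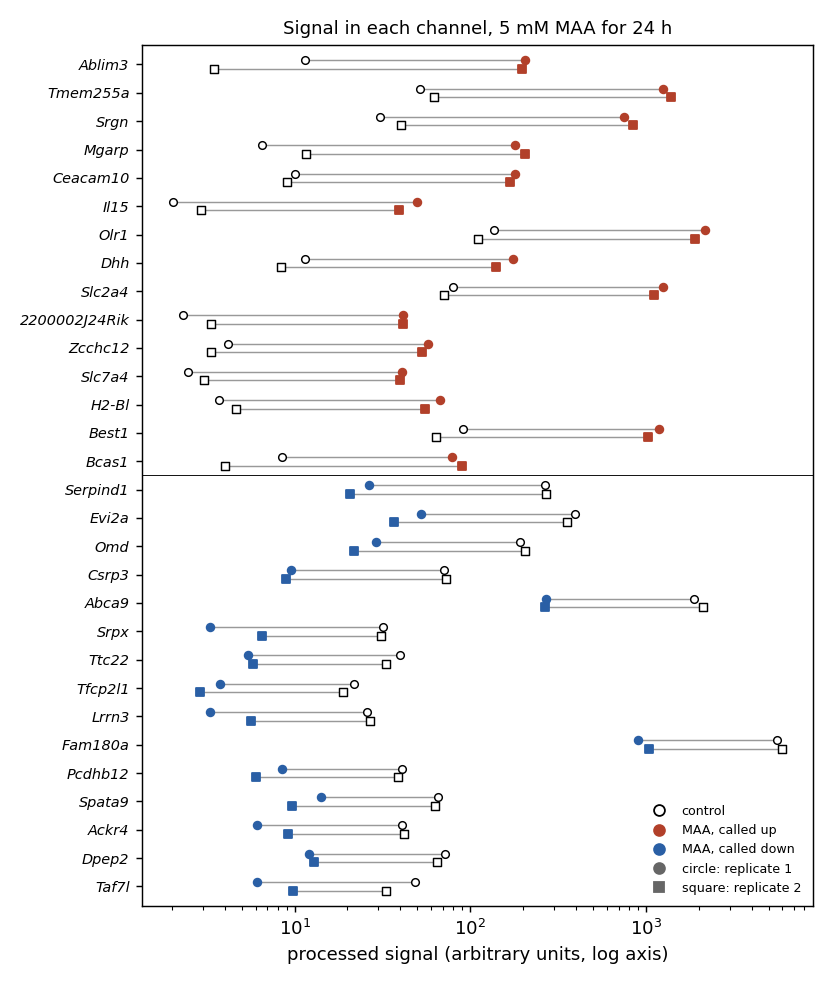
Processed signal (arbitrary units, log axis) in the MAA channel (filled) and the control channel (open) of both arrays for the 15 genes with the largest called increases and the 15 with the largest called decreases. The genes were chosen among probes past 2-fold on both arrays, so the channels are apart on both by choice. Most of the genes that fell end at signals near background.

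The decreases were smaller, and most of the deepest ended at background. Serpind1, the thrombin inhibitor heparin cofactor II, fell from 265 and 269.6 to 26.5 and 20.8 (log2 ratio -3.51 ± 0.17, adjusted p = 1.6e-05). Evi2a fell from 394 and 355 to 52.3 and 36.6 (-3.10 ± 0.16). Omd, osteomodulin, a matrix proteoglycan, fell from 193 and 205 to 29.2 and 21.8 (-2.98 ± 0.37). MAA and control signals did not overlap in these 3 genes, which were named for the size of their decrease, so the gap is a description. Abca9, an ABC transporter of the lipid transport subfamily, was called down by all 3 of its probes (brightest -2.90 ± 0.22). Fam180a fell from signals of 5618 and 5968 to 903 and 1036 (-2.58 ± 0.10). Csrp3, the muscle LIM protein, was at least 5.44-fold lower, Ackr4, a receptor that takes up chemokines, at least 3.099-fold lower, and Taf7l, a testis-specific transcription factor subunit, at least 3.02-fold lower. With normexp and loess the calls of Il15, Zcchc12, Slc7a4, H2-Bl, Csrp3, Ackr4, Taf7l and 8 other genes of the plot were lost.

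The few called genes of steroidogenesis moved in both directions. Of 23 steroidogenesis genes, 2 were called up (8.7%) and 1 down (4.35%), against 5.23% and 1.69% of all genes. By limma at an adjusted p under 0.05, 3 of the 23 were higher and 1 lower, against 18.6% and 18% of all genes. Their median log2 ratio was 0.16. Shbg, which encodes sex hormone-binding globulin, rose from 44.9 and 35.9 to 189 and 190.3 (2.24 ± 0.18, adjusted p = 0.00012). Cyp11a1, the side-chain cleavage enzyme that takes cholesterol into steroid synthesis, was at least 2.06-fold higher, with log2 ratios of 1.67 and 1.84 and both probes higher. Insl3, a peptide hormone of Leydig cells that guides testis descent, fell from 868 and 739 to 372 and 370 (-1.11 ± 0.12). Star, which moves cholesterol into mitochondria, gave 0.19 (adjusted p = 0.48), and Cyp17a1, which makes androgen precursors, gave -0.34 and 0.02 (adjusted p = 0.48). Leaving out either array ended the call of Cyp11a1 (1.67 without replicate 2, 1.84 without replicate 1), and leaving out replicate 1 ended that of Insl3 (-0.997). The call of Shbg held when either array was left out.

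Most of the other genes that the study follows were called. Rhox5, a homeobox gene of the reproductive tract that Sertoli cells express, rose from 351 and 338 to 834 and 836 (1.28 ± 0.08), and Hoxb13 rose from 34.4 and 30.3 to 94.8 and 96.8 (1.57 ± 0.20). Igfbp3, a carrier of insulin-like growth factors, was at least 1.49-fold lower, on a probe near background, and lost its call without replicate 2 (-1.24). Itpka, the kinase that turns inositol trisphosphate into tetrakisphosphate, rose by 1.77 ± 0.07, and Kcnab3, a potassium channel beta subunit, by 2.09 ± 0.06. Ly96, the MD-2 partner of the lipopolysaccharide receptor, fell from 1294 and 1205 to 290.4 and 290.5 (-2.10 ± 0.05), and both probes of Pcdhb15, a protocadherin, were called down (-1.65 ± 0.07 for the brighter). Rasgrp2 was not well above background in any channel.

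**Figure D3:**
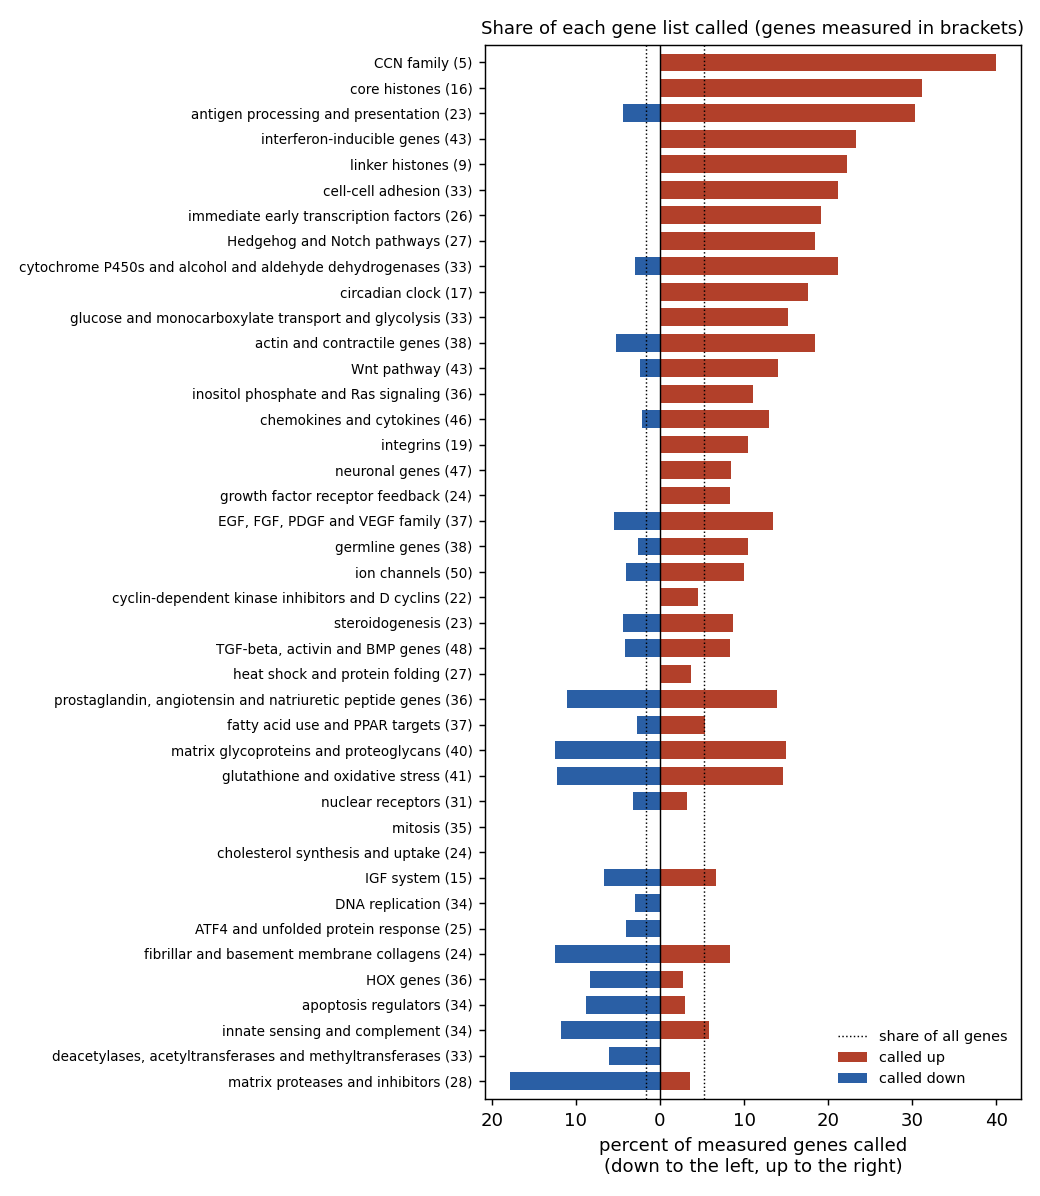
Share of the measured genes of each list called up (right, red) and called down (left, blue) after 24 h at 5 mM, with the number of genes measured in brackets; dotted lines mark the 5.23% up and 1.69% down of all genes. The histone, antigen presentation and interferon lists lie far to the right of the background, and matrix proteases reach farthest to the left.

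Interferon-inducible genes and genes of antigen presentation held more calls up than down, as did all genes (5.23% up and 1.69% down). Interferon-inducible genes are the antiviral set that cells switch on through STAT and IRF factors, and the presentation genes carry peptides to the cell surface for T cells. Of 43 interferon-inducible genes measured, 10 (23.3%) were called up and none down by limma at an unadjusted p under 0.005 and 2-fold, while at an adjusted p under 0.05 with any fold 15 were higher and 6 lower; the same counts over all genes were 18.6% higher and 18% lower. Cxcl10, a chemokine that attracts T cells, rose from 933 and 1072 to 4163 and 4376 (2.09 ± 0.07). Usp18, which removes the ubiquitin-like protein ISG15, rose from 184 and 152 to 591 and 557 (1.78 ± 0.13). Oas2, a sensor of double-stranded RNA, rose from 155 and 133 to 1044 and 874 (2.73 ± 0.51). Its groups did not overlap, yet the SE was the widest of the list's called genes, and leaving out either array ended the call (2.75 without replicate 2, 2.71 without replicate 1).

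Iigp1, an immunity-related GTPase, rose by 1.45 ± 0.16 and Gbp4, a guanylate-binding protein, by 1.36 ± 0.18. The other 5 called genes were nearer to 2-fold: Bst2 (tetherin, which holds budding virus at the membrane) at 1.24, Oasl1 at 1.16, Ifit1 and Isg15 each at 1.03 and Ifi27 at 1.01. On 1 array each, 4 of these 5 were under 2-fold and lost their call when the other was left out, namely Oasl1 (0.64) and Isg15 (0.92) without replicate 2 and Ifit1 (0.86) and Ifi27 (0.97) without replicate 1. Among the 6 lower genes Zbp1, a sensor of nucleic acids, gave -0.98, and the 3 probes of Ifi204 lay between -0.71 and -1.02, with the brightest at -0.91. Irf1 gave -0.02, while Stat2 was higher by 0.73.

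The promoters of the called interferon genes are shown for the interferon-response motif TTCNNTTTC, searched on both strands in the 250 bases before and 50 bases after each RefSeq start site (GRCm38.p6). The motif was held by 56.4% of the 39 promoters of the 32 interferon-inducible genes that had one, by 9.36% of the 748 promoters of genes called up, by 9.01% of the 233 of genes called down and by 7.93% of the 15942 of all measured genes. The table gave a promoter for 5 of the called interferon genes, and 4 of these 5 held the motif. They are printed 5′ to 3′ up to the last base before the start site, with the matches in capitals:
Ifit1, chr19:34640639-34640888 (+ strand): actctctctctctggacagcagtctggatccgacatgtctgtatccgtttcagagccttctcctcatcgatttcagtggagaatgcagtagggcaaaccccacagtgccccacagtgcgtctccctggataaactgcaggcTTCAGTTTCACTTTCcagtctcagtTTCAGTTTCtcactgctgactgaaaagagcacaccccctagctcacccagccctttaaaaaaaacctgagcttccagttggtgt
Isg15, chr4:156200819-156201068 (- strand): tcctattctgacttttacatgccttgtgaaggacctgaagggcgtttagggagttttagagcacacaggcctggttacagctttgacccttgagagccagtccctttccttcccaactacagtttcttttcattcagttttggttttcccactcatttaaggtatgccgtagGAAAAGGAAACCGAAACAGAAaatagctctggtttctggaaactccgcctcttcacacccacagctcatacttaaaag
Bst2, chr8:71537473-71537722 (- strand): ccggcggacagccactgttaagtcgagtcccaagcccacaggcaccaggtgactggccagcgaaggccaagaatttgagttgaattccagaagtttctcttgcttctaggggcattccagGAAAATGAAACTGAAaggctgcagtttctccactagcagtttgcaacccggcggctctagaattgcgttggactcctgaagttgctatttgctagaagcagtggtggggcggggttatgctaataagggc
Cxcl10, chr5:92348890-92349139 (- strand): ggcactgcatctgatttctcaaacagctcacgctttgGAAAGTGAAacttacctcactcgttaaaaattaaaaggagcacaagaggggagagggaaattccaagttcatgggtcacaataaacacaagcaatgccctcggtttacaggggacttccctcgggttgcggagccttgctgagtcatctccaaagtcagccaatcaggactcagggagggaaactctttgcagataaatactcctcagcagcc
Ifit1 and Isg15 held 3 overlapping or neighbouring matches each, the nearest ending 76 and 58 bases before the start, Bst2 held 2 overlapping matches from base 130 to 116 before it, and Cxcl10 held 1 from base 213 to 205. A match is a description of letters and not of a bound factor.

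Antigen processing and presentation had 7 of 23 genes called up (30.4%) and 1 called down (4.35%). At an adjusted p under 0.05, 17 were higher and 1 lower, against 18.6% and 18% of all genes. Without replicate 2 the 17 became 9 and without replicate 1 they became 11, while the counts over all genes also fell. The class II genes, which present peptides taken up from outside the cell, led the list. Cd74, the invariant chain that escorts class II molecules, rose from 1450 and 1174 to 7147 and 6732 (2.41 ± 0.13). H2-Ab1, a class II beta chain, rose from 19.1 and 15.9 to 138 and 134 (2.96 ± 0.21, with 1 control channel above background), and both of its probes were called. H2-Aa was at least 2.00-fold higher, H2-Eb1 gave 1.82 ± 0.18, and H2-DMa, which loads peptide onto class II, gave 1.36 ± 0.11. H2-D1, a class I heavy chain, rose by 1.18. The immunoproteasome subunits parted: Psmb9 rose from 1068 and 1006 to 2529 and 2622 (1.31 ± 0.07) and Psmb10 fell from 7898 and 7459 to 2465 and 2586 (-1.60 ± 0.07).

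Macrophages also express class II genes, so their markers were read beside these lists. Of 8 macrophage markers, Ptprc, Itgam, Fcgr1 and Cd163 were not well above background in any channel, Adgre1 (F4/80) was at least 3.65-fold higher and Mrc1 rose by 2.45, both on dim probes, and Cd14 fell by 1.64 on the log2 scale. The summed signal of the 8 markers was lower with MAA (1573 and 1459) than in control (2507 and 2488). Cd14 (1152 and 1109 in control, 356 and 372 with MAA) and Lyz2 (1328 and 1343, then 1078 and 961) held most of it. Adgre1 went from 5.41 and 6.92 to 47.5 and 40.7, with 0.17 on its other probe, and Mrc1 from 11.7 and 15.8 to 76.2 and 72.2. The part of the macrophage markers in the rise of the class II genes was not tested. Of 46 chemokines and cytokines 6 were called up and 1 down, with a median log2 ratio of 0.17. Ccl17, which attracts T helper cells, rose from 257 and 195 to 869 and 806 (1.90 ± 0.14) and Tnfsf10 (TRAIL) by 2.07 ± 0.31, with no call without replicate 1 (1.94). Il7, a growth factor of lymphocytes, was at least 3.45-fold higher. Cxcl12, a chemokine that retains stem cells, fell from signals of 115800 and 127700 to 46260 and 64650 (-1.15 ± 0.15), with -0.98 without replicate 1, which ended its call.

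Innate sensing and complement genes leaned the other way, with 2 of 34 called up, 4 called down (11.8%) and a median of -0.21. The shares over all genes were 5.23% called up and 1.69% called down. At an adjusted p under 0.05, 4 were higher and 14 lower, against 18.6% and 18% of all genes. Of the lipopolysaccharide receptor complex Ly96 fell as above, Cd14 fell from 1152 and 1109 to 356 and 372 (-1.64 ± 0.07), and the receptor itself, Tlr4, gave -0.37 (adjusted p = 0.114) and was not called. Tlr2, which senses bacterial lipoproteins, fell from 6988 and 6719 to 2816 and 2606 (-1.34 ± 0.09). Tlr1, the partner of Tlr2, rose from 285 and 259.7 to 848 and 809 (1.61 ± 0.08). C1ra, a complement protease, fell by 1.19 on the log2 scale, and its call was lost without replicate 2 (-0.99).

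All calls among histone genes were increases. Linker histones bind the DNA between nucleosomes, and of 9 measured 2 were called up and none down, with a median log2 ratio of 0.75. At an adjusted p under 0.05, 7 were higher, against 18.6% of all genes. H1f2 rose from 3295 and 2693 to 10090 and 9237 (1.70 ± 0.12), and H1f3 from 30.4 and 31.3 to 192 and 172 (2.56 ± 0.20). The other probe of H1f3 gave 0.78 and was not called. H1f4 (0.90), H1f5 (0.79), H1f0 (0.75) and H1f10 (0.64) were higher without reaching 2-fold. Of 16 core histone genes 5 were called up (31.2%) and none down, while at an adjusted p under 0.05 7 were higher and 3 lower. The lower ones were Macroh2a2 (-0.85), H2ac18 (-0.66) and H2ax (-0.39). H2bc4 rose from 2131 and 2646 to 8189 and 7556 (1.73 ± 0.22), H2bc1 (the testis-specific H2B) from 619 and 538 to 1457 and 1381 (1.30 ± 0.06) and H2bc21 by 1.09, while H2bc6 was at least 3.06-fold and H2ac6 at least 1.31-fold higher. H2ac6 lost its call without replicate 1 and H2bc6 without replicate 2, and the log2 ratios then were 1.60 and 2.29. Histone genes are near-identical copies and their 60-mer probes may share signal, which was not tested.

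The enzymes that write and erase histone marks had few calls. Of 33 deacetylases, acetyltransferases and methyltransferases none was called up by limma and 2 were called down (6.06%). The shares over all genes were 5.23% called up and 1.69% called down. At an adjusted p under 0.05, 7 were higher and 9 lower, against 18.6% and 18% of all genes. Sirt1, an NAD-dependent deacetylase, was called down by both probes, from 3462 and 3936 to 1536 and 1651 (-1.21 ± 0.06). Hdac9, a class IIa deacetylase, fell from 56.4 and 99.9 to 14.5 and 23.5 by its brighter probe (-2.02 ± 0.31). Its other probe gave -0.56 and was not called. Without replicate 2 the list had 4 genes called down.

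**Figure D4:**
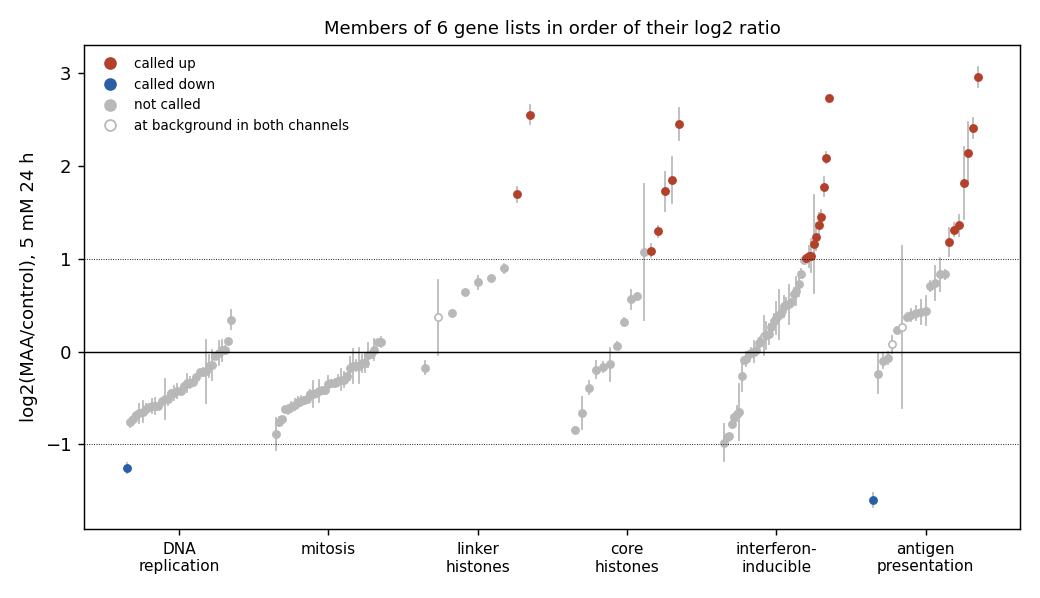
Log2(MAA/control) after 24 h at 5 mM of every measured gene of 6 lists, ordered within each list, with points at the mean of the arrays, vertical lines joining the values of both arrays, colours for called genes and dotted lines at 2-fold. Nearly all DNA replication and mitosis genes lie between 0 and -1, while the histone, interferon and presentation lists reach above 1.

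Most genes of DNA replication and mitosis were lower at an adjusted p under 0.05, and 1 was called. The replication list holds the helicase, polymerase and nucleotide-supply genes of S phase. Of its 34 measured genes 1 was called down and none up by limma at the call thresholds. At an adjusted p under 0.05, 25 were lower and none higher, while over all genes 18% were lower and 18.6% higher. The median log2 ratio of the list was -0.42. Rrm1, the large subunit of ribonucleotide reductase, fell from 28680 and 29280 to 12480 and 11820 (-1.25 ± 0.11, adjusted p = 0.00016). Mcm4, a subunit of the replicative helicase, gave -0.76, Rrm2 gave -0.72, Cdc45 gave -0.68 and Pcna, the sliding clamp, gave -0.60. Of 35 mitosis genes none was called in either direction, and 23 were lower and none higher at an adjusted p under 0.05 (median -0.35). Cenpa, the histone variant of the centromere, gave -0.89, Ndc80, of the kinetochore, -0.75, Kif20a -0.73, Cdc20 -0.62 and the kinase Aurka -0.60.

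The counts of lower genes depended on the shared estimate of the spread: fitted on the 2 arrays alone, 1 replication gene and no mitosis gene were lower at an adjusted p under 0.05. At 8 h the median of the replication list had been 0.17 and that of the mitosis list -0.29. Among 22 cyclin-dependent kinase inhibitors and D cyclins only Rb1, which holds cells before S phase, was called, and it rose by 1.07 ± 0.08 and was called by both of its probes. Of 34 apoptosis regulators 1 was called up and 3 down. Pmaip1 (NOXA, a BH3-only inducer of cell death) rose by 1.01 and lost its call without replicate 1 (0.92), while Casp12 (-1.03), Birc3 (-1.10) and Bad (-1.46) fell, and the calls of these 3 were lost with normexp and loess (-0.97, -0.95 and -0.48).

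Genes of the extracellular matrix moved in both directions. Of 40 matrix glycoproteins and proteoglycans 6 were called up (15%) and 5 down (12.5%). Spp1, osteopontin, rose from 709 and 616 to 3116 and 3147 (2.25 ± 0.18). Lum, the proteoglycan lumican, rose from 143 and 186 to 599 and 612 (1.89 ± 0.17) and Postn, periostin, by 2.47 ± 0.31. These contrast with Lox, which crosslinks collagen, from 76610 and 87530 to 29360 and 32720 (-1.40 ± 0.14). Tnc, tenascin C, was called down by both probes, from 2027 and 1868 to 743 and 721 (-1.41 ± 0.11), and Ogn, a small leucine-rich proteoglycan like Omd and Lum, fell by 1.22 on the log2 scale. Aspn was at least 1.59-fold lower on a dim probe and lost its call without replicate 2 (-0.998).

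Of 28 matrix proteases and inhibitors 1 was called up and 5 down (17.9%). At an adjusted p under 0.05, 6 were higher and 12 lower, against 18.6% and 18% of all genes. Mmp3, stromelysin, fell from 165 and 155 to 38.0 and 42.6 (-1.995 ± 0.08), Mmp13, a collagenase, from 1037 and 1017 to 399.9 and 355 (-1.45 ± 0.09) and Mmp19 from 948 and 899 to 365 and 387 (-1.30 ± 0.07). Mmp23 (-1.27) and Mmp14, the membrane-bound activator of other proteases (-1.01 on its brightest probe, -0.92 on replicate 1 alone), made up the rest. With normexp and loess 3 of the protease genes were called down.

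Of 24 collagen genes 2 were called up and 3 down, with a median of 0.10. Col11a1, a fibrillar collagen of cartilage, rose from 2124 and 1887 to 5386 and 4706 (1.33 ± 0.10). Col1a2, of the main fibrillar collagen, fell from 172200 and 230800 to 57220 and 114200 (-1.30 ± 0.16), and Col3a1 from 149200 and 167700 to 59460 and 89410 (-1.12 ± 0.13). Both had their larger fall on replicate 1, and Col3a1 lost its call without that array (-0.91). Col14a1 fell by 1.17 on the log2 scale and lost its call when either array was left out (-1.11 without replicate 2 and -1.23 without replicate 1). Of 7 fibroblast markers, some of them matrix genes, 2 were called down (Col1a2, counted above, and S100a4) and Thy1 up on a dim probe. The median log2 ratio of the 7 was -0.57, against 0.20 for the matrix glycoproteins and 0.10 for the collagens. Their summed signal was 456000 and 565700 with MAA against 733900 and 871300 in control. The other probe of Thy1 gave 0.17. The part of the fibroblast markers in the matrix changes was not tested.

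Among adhesion and cytoskeletal genes more were called up than down, as was so among all genes (5.23% up and 1.69% down). Of 33 cell-cell adhesion genes 7 were called up (21.2%) and none down (5 were lower at an adjusted p under 0.05 by limma), and their median was 0.31. Cdh15, M-cadherin of muscle precursors, rose from 30.3 and 20.7 to 263 and 242 (3.33 ± 0.28). Mcam, an adhesion molecule of vessels and muscle, rose from 1434 and 1418 to 3847 and 4148 by its brightest probe (1.49 ± 0.11), and both probes were called. Cd34, a sialomucin of stem and vessel cells, rose from 16750 and 14100 to 45910 and 35020 (1.38 ± 0.10), and the tight junction genes Cldn1 (1.59) and Jam2 (1.35) rose. Another of the 7, Cdh5, was called on a probe that was not well above background in any channel. Of 19 integrin subunits 2 rose: Itgb7, a leukocyte beta subunit, by 2.03 ± 0.11 and Itga6, a laminin receptor chain, by 1.15 ± 0.13. Of 7 endothelial markers Pecam1, Cdh5, Tie1 and Kdr were not well above background in any channel and Vwf was at least 2.86-fold higher, with summed signals of 114 and 87.4 with MAA and 87.4 and 72.0 in control. Their part in the adhesion genes was not tested.

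Of 38 actin and contractile genes 7 were called up (18.4%) and 2 down, with a median log2 ratio of 0.54. At an adjusted p under 0.05, 22 were higher and 3 lower, against 18.6% and 18% of all genes. Vcl, vinculin of focal adhesions, was called by both probes and rose from 20230 and 17350 to 44380 and 38180 (1.14 ± 0.06). Muscle proteins made up 5 of the 7 increases, among them Des, desmin (1.30 ± 0.14), Lmod1, a smooth muscle leiomodin (2.69 ± 0.35), Tnni1, slow troponin I (1.67 ± 0.11), and Tnnt2, cardiac troponin T (1.38 ± 0.12). Vil1, villin of microvilli, was called by both probes (3.45 ± 0.42). Myl4, an atrial myosin light chain, was called down by both probes (-1.60 ± 0.15). All 6 peritubular myoid markers, which are contractile genes, were above background, with only Des called by its brightest probe. Their summed signal was 42940 and 37950 with MAA against 30890 and 26700 in control. Acta2 held most of that sum, with 37800 and 32980 with MAA against 27380 and 23390 in control. Its brightest probe gave 0.48, while 1 of its 3 probes was called up (1.25).

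More growth factor and immediate early genes were called up than down, as was so among all genes (5.23% up and 1.69% down). In the EGF, FGF, PDGF and VEGF family 13.5% were called up and 5.41% down. Of 26 immediate early transcription factors 5 were called up (19.2%) and none down by limma (4 were lower at an adjusted p under 0.05). Egr1 rose from 8905 and 8929 to 31660 and 27400 (1.72 ± 0.12), Egr2 from 343 and 348 to 1121 and 1106 (1.69 ± 0.10) and Klf4, a pluripotency and differentiation factor, from 8451 and 7626 to 21050 and 18460 (1.30 ± 0.09). Fos (1.08) and Klf5 (1.00) were at the 2-fold line, and each lost its call without 1 array (Fos 0.95 without replicate 1, Klf5 0.95 without replicate 2). Areg, the EGF receptor ligand amphiregulin, rose from 70.2 and 50.4 to 629 and 547 (3.30 ± 0.11), and Flt1, a VEGF receptor, was called by both probes (1.24 ± 0.07). Btc was called up by its brighter probe (1.23), while its other probe gave 0.16. Vegfd fell from 13270 and 12580 to 3776 and 4058 (-1.72 ± 0.08) and Fgf7, a growth factor of epithelia (-0.98 on replicate 1 alone), from 23910 and 24210 to 12140 and 10740 (-1.07 ± 0.08). In this family of 37 genes 5 were called up and 2 down, and the 5 became 2 without replicate 1 and 3 without replicate 2, with Erbb3 and Btc lost in both cases (1.74 and 1.23 without replicate 2, 1.76 and 1.22 without replicate 1).

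The CCN family of matricellular proteins had 2 of 5 genes called up. Ccn2, connective tissue growth factor, rose from 3148 and 2604 to 13960 and 11850 (2.17 ± 0.14) and Ccn5 from 71.7 and 72.0 to 316 and 283 (2.06 ± 0.13). In the TGF-beta, activin and BMP list of 48, 4 genes rose and 2 fell. Inhba, the activin beta A subunit, rose from 1085 and 902 to 3184 and 2662 (1.56 ± 0.09), and Ltbp2, which holds latent TGF-beta in the matrix, fell from 11910 and 11910 to 4828 and 5057 (-1.27 ± 0.09). In the IGF system of 15 genes Igf2 rose by 1.27 ± 0.13, called by both of its probes, and Igfbp3 was the other call. Of 24 genes of receptor feedback the phosphatases Dusp14 (1.12) and Dusp6 (1.01) were called up, the latter not without replicate 2 (1.00).

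In the hedgehog and Notch list 5 of 27 genes were called up (18.5%) and none down. Besides Dhh these were Gli1, the transcription factor that reports hedgehog signaling, from 33.7 and 26.1 to 108 and 107 (1.86 ± 0.13), and the Notch genes Nrarp (1.87 ± 0.20), Hey1 (1.22 ± 0.13) and Dll3, at least 2.73-fold higher. The Dll3 call was lost when either array was left out (1.69 without replicate 2, 1.51 without replicate 1). Dhh is also a Sertoli cell marker: of 9 such markers Dhh and Rhox5 were called up, Amh, Fshr, Dmrt1 and Cldn11 were not well above background in any channel, and the summed signal was 12870 and 12620 with MAA against 12830 and 13910 in control. Wt1, which was not called, held most of that sum, with 11500 and 11290 with MAA against 12190 and 13240 in control. The promoter of Dhh is printed because it was among the largest increases, with GC boxes (GGGCGG, either strand) in capitals:
Dhh, chr15:98898541-98898790 (- strand): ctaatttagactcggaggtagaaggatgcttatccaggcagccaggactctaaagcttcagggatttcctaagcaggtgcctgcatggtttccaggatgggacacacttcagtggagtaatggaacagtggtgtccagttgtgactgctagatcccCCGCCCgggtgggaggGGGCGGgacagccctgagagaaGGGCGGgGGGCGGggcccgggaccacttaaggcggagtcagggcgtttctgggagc
Its 4 GC boxes lay between bases 94 and 44 before the start. A GC box was held by 48.3% of promoters of genes called up, 34.8% of genes called down and 51.3% of all measured genes, so it was no more frequent among increases than overall. The EGR motif GCGTGGGCG, which can overlap a GC box, was in 0.802% of promoters of genes called up, none of those called down and 0.903% of all, and the SF-1 motif CAAGGTCA in 0.936%, 1.29% and 1.18%.

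In the Wnt list 6 of 43 genes rose and 1 fell. Wnt6, a ligand, was at least 2.77-fold higher and Wif1, a secreted inhibitor of Wnt ligands, at least 2.17-fold higher. Sfrp2, another secreted inhibitor, fell from signals of 148800 and 167900 to 68090 and 86010 (-1.05 ± 0.09), with no call without replicate 1 (-0.96). Without replicate 2 only 3 of the 6 increases were called, with Wnt10a at 1.13. Among 36 genes of inositol phosphate and Ras signaling (median 0.46), 17 were higher and 2 lower at an adjusted p under 0.05, against 18.6% and 18% of all genes. Of the 36, 4 were called up and none down. Beside Itpka these were Plcd1, a phospholipase C, from 3020 and 2598 to 6899 and 6276 (1.23 ± 0.06), Dgka, a diacylglycerol kinase, from 5367 and 4469 to 11840 and 10670 (1.20 ± 0.06) and Plcg2, with 0.61 on replicate 1 and 1.41 on replicate 2 and no call without replicate 2.

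Glucose transport and glycolysis had 5 of 33 genes called up (15.2%) and none down by limma (2 were lower at an adjusted p under 0.05). Beside Slc2a4, the transporter Slc2a6 rose from 47.0 and 45.8 to 230.1 and 222 (2.28 ± 0.12), and 2 kinases of glycolysis rose: Pfkp, a phosphofructokinase, from 2451 and 2086 to 6955 and 6030 (1.52 ± 0.06) and Hk1, hexokinase, by 1.28 ± 0.09 with 4 of its 5 probes called. Slc2a3 gave 1.03 and 1.26 and lost its call when either array was left out. Fabp4, a fatty acid carrier and PPAR target, rose from 182 and 177 to 636 and 611 (1.79 ± 0.08) and was called by all 3 probes, while Angptl4, a lipase inhibitor and PPAR target, fell from 23580 and 22870 to 10490 and 10980 (-1.11 ± 0.06). With Acsl4 these were the calls among 37 genes of fatty acid use. Of 24 genes of cholesterol synthesis and uptake none was called by limma (3 were higher and 4 lower at an adjusted p under 0.05), and their median was 0.01.

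In the list of cytochrome P450s and alcohol and aldehyde dehydrogenases, which also holds Sult1a1, Ephx1 and Ephx2, 7 of 33 genes were called up (21.2%) and 1 down. The gene called down was Sult1a1, a sulfotransferase, at least 1.72-fold lower, and the 7 increases were P450s and Aldh1a7. Cyp1a1, the classic target of the aryl hydrocarbon receptor, rose from 74.9 and 69.6 to 665 and 501 (3.00 ± 0.19). Aldh1a7 rose from 3554 and 2700 to 10290 and 9050 (1.64 ± 0.11). Cyp4b1 was at least 1.89-fold higher, and Cyp3a13 gave 2.40 ± 0.27. Glutathione and oxidative stress genes split, with 6 of 41 called up (14.6%) and 5 down (12.2%). Among glutathione transferases Gsta2 (1.83), Gstt2 (1.16) and Gstm6 (1.08) rose, while Gsta1 (-1.14) and Gsta3 (-1.24, both probes) fell. Slc7a11, which imports cystine for glutathione, gave -1.51 and -1.89 and lost its call when either array was left out. The 5 decreases became 2 without replicate 1. Mgst3, a microsomal transferase, rose from 3040 and 2822 to 6746 and 8167 (1.34 ± 0.13).

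Of the remaining lists, the circadian clock had 3 of 17 genes called up and none down by limma (1 was lower at an adjusted p under 0.05), and Per2, a repressor of the clock, rose from 516 and 483 to 1312 and 1271 (1.37 ± 0.06) by its brightest probe, while its other probe gave -0.22. Of 31 nuclear receptors 1 was called up and 1 down, and Nr2f1 (COUP-TF1) fell by 1.40 on the log2 scale. Of 36 HOX genes Hoxb13 rose and Hoxc6 (-1.19), Hoxd3 (-1.27) and Hoxd4 (-1.33) fell. Of 38 germline genes 4 rose and 1 fell, and Ldhc, the lactate dehydrogenase of sperm, was at least 3.03-fold higher. Of 8 germ cell markers only Stra8 was called (1.09, lost without either array, with 1.25 on replicate 1 and 0.94 on replicate 2), and their summed signal was lower with MAA (618 and 668) than in control (912 and 1041). Ddx4 held most of that sum, with 403 and 461 with MAA against 700 and 831 in control (log2 ratio -0.82). At an adjusted p under 0.05 by limma 2 of the 8 markers were higher and 2 lower.

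Among 50 ion channel genes 5 rose and 2 fell, with Kcna4 at 2.56 ± 0.34 and Kcnk2 at -1.08 ± 0.08. Of 47 neuronal genes 4 were called up and none down, led by Mapt, the microtubule protein tau, from 121 and 92.5 to 482 and 475 (2.18 ± 0.15). In the list of prostaglandin, angiotensin and natriuretic peptide genes 5 rose and 4 fell of 36, and the prostaglandin E receptors did not move as 1 group: Ptger4 rose by 1.10 ± 0.09, while Ptger1 (-1.18) and Ptger2 (-1.34) fell. Agtr2, an angiotensin receptor, fell from 369.5 and 430.4 to 103 and 97.3 (-1.995 ± 0.25). Heat shock genes had 1 call of 27 (Hspa4l, 1.44 ± 0.07, all 3 probes) and the ATF4 and unfolded protein response list 1 of 25 (Atf5, -1.37 ± 0.09).

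At 24 h much of the response had not been called earlier. Of the 1586 probes called up at 24 h, 799 (50.4%) were called at neither 3 h nor 8 h of 5 mM MAA, 492 were called at 8 h only, 248 at both times and 30 at 3 h only. Their median log2 ratio was 0.28 at 3 h and 1.02 at 8 h, and since they were chosen for their value at 24 h the lower medians are a description. Of the 729 probes called down at 24 h 329 (45.1%) had no earlier call, with medians of -0.595 at 3 h and -1.06 at 8 h. Among genes 408 of the 837 increases and 119 of the 271 decreases came first at 24 h. They included 5 of the 6 increases among matrix glycoproteins, 4 of 5 among core histones and 4 of 6 in the Wnt list. The 5 of 10 among interferon-inducible genes and 4 of 7 in antigen presentation were close to the share over all genes. Of the decreases among matrix proteases 3 of 5 came first at 24 h. No increase did so among the 2 of linker histones, the 5 of the EGF, FGF, PDGF and VEGF family or the 3 of the circadian clock.

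A missing call at 8 h is no test of a change, so the difference between times was tested. From 8 h to 24 h 3670 probes (8.91%) changed at an adjusted p under 0.05, and from 3 h to 24 h 6510 (15.8%). Of the probes called up at 24 h 447 had risen further since 8 h and 24 had come back, and of those called down 148 had fallen further and 45 had come back. The count from 8 h was the least firm value: it was 133 with the 6 arrays at 5 mM alone, 1332 with each array centred on its median, 7413 with the replicate number as a block, and between 960 and 1263 when 1 of the 4 arrays concerned was left out. The count from 3 h was 2188 with the 6 arrays at 5 mM alone, 3932 with centring, 10570 with the block and 2883 to 4412 when 1 array was left out. The named differences were therefore recomputed under 12 alternatives.

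Fmo2, a flavin-containing monooxygenase, turned from -1.60 at 3 h and -2.63 at 8 h to 1.06 ± 0.20 at 24 h on the probe the contrast picked, a difference from 8 h of 3.70 (adjusted p = 0.0013) that passed under all 12, and its brighter probe also went from down at 8 h to up at 24 h. The call of Fmo2 at 24 h was itself lost without either array, with values of 1.07 and 1.06. Gsta2 turned from -1.36 to 1.83 (difference 3.20, all 12 alternatives) and Mpp4, a scaffold protein, from 1.96 to -1.92 (difference -3.88, all 12). Cyp4b1 (difference 3.43, all 12), Ldhc (3.19, 11 of 12), Dmrtc2, a DM-domain gene (2.95, 11 of 12), and Olr1 (2.52, all 12) were higher at 24 h than at 8 h. Adgre1 (2.89) and Cd34 (1.67) also rose between 8 h and 24 h under all 12. Lum (2.83), H2-Eb1 (2.29), Itgb7 (1.95), Spp1 (1.87), Aldh1a7 (1.75) and Rhox5 (1.30) did so under 11, each failing with the 6 arrays at 5 mM alone, and H2-Aa (2.19) under 9. For Cyp4b1, Ldhc, Adgre1 and H2-Aa no control channel at 24 h was well above background, so the size of their differences is not firm. At 24 h these genes were at least 1.89-fold, 3.03-fold, 3.65-fold and 2.00-fold higher than control, in that order. Cxcl10 came back from 3.57 at 8 h to 2.09 (difference -1.48, all 12), and Per2 went from 1.33 at 3 h to -0.56 at 8 h and 1.37 at 24 h (difference from 8 h 1.94, all 12).

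**Figure D5:**
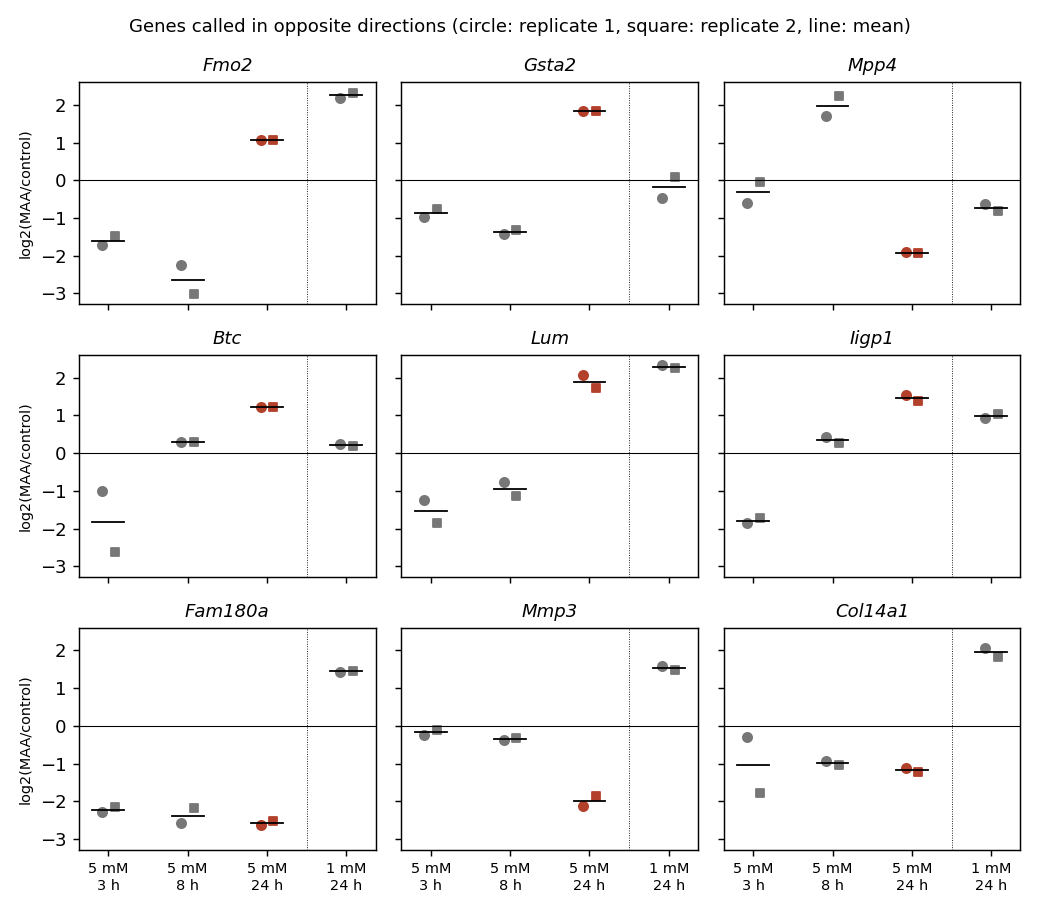
Log2(MAA/control) on each array (circle replicate 1, square replicate 2, line the mean) of 9 genes called in opposite directions at 5 mM 24 h (red) and at another treatment. Fmo2, Gsta2, Btc, Lum and Iigp1 were below 0 early and above 0 at 24 h, Mpp4 went the other way, and Fam180a, Mmp3 and Col14a1 were below 0 at 5 mM and above 0 at 1 mM.

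Opposite calls between times were few: of the probes called up at 24 h, 12 had been called down at 3 h only, 3 at 8 h only and 2 at both times. Of the probes called down at 24 h 2 had been up at 3 h and 1, Mpp4, at 8 h. Iigp1 went from -1.80 at 3 h to 1.45, Lum from -1.54 to 1.89 and Btc, the EGF receptor ligand betacellulin, from -1.82 to 1.23, with differences of 3.25, 3.43 and 3.04 that passed under all 12 alternatives. Ifit1, called down at both 3 h (-1.82) and 8 h (-1.30), was called up at 24 h (1.03), a difference from 8 h of 2.33 (adjusted p = 0.0014) that was not recomputed under the alternatives. The median log2 ratio of the interferon-inducible list was -0.25 at 3 h, -0.22 at 8 h and 0.36 at 24 h.

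The 1 mM arrays at 24 h carry the same 24 h control label as the 5 mM arrays, so the ratios of both concentrations share that control as labelled, and whether 1 RNA pool served both is not stated in the sources used here. The probes called up at 5 mM had a median log2 ratio of 0.68 at 1 mM and those called down one of -0.43, again as a description, since they were chosen at 5 mM. Between concentrations 3462 probes (8.41%) differed at an adjusted p under 0.05, and this count was 816 to 1011 when 1 of the 4 arrays was left out, 1525 with each array centred on its median and 7210 with the replicate block. Of the 5 mM calls 711 increases and 429 decreases were larger at 5 mM, and 4 increases were larger at 1 mM. Olr1 (1.92 at 1 mM against 4.05, difference 2.13), Cyp4b1 (-0.02 against 3.17, difference 3.19) and Gsta2 (-0.19 against 1.83, difference 2.02) were larger at 5 mM. For Cyp4b1 no control channel of the 5 mM arrays was well above background, so the size of its difference is not firm.

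A few genes went opposite ways at the concentrations. Fam180a gave 1.44 and 1.45 on the 1 mM arrays and -2.64 and -2.53 at 5 mM, a difference of -4.02 (adjusted p = 9.0e-05). Mmp3 gave 1.58 and 1.49 at 1 mM and -2.12 and -1.87 at 5 mM (difference -3.53), and Col14a1 gave 2.05 and 1.84 against -1.11 and -1.23 (difference -3.12). Tnc was called up at 1 mM (1.14) and down at 5 mM (-1.41). For Fam180a, Mmp3 and Col14a1 both arrays of a concentration lay on the same side of 0, and the difference passed under all 11 alternatives run for it.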

How the data were processed

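Whole mouse genome arrays with 2 colours were hybridised with RNA of MAA-treated cells in one channel and of control cells in the other. Per the file headers, signals were extracted with Agilent Feature Extraction 9.5.3.1. The deposited intensity of a spot is its processed signal in green and in red, background-subtracted and dye-normalised by the authors with linear and LOWESS terms. A table of deposited log10 ratios (MAA over control) of the same arrays was used as an alternative after its direction had been set against the scanner signals.

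Control spots and spots flagged as outliers were left out, spots of a probe were averaged, and log2(MAA/control) was taken from the processed signals. The ratios of all 12 arrays were fitted with limma 3.58.1 in R 4.3.3, with 1 coefficient for each of the 6 treatments, so that the SE of a 2-array treatment draws on the spread within all treatments (6 residual degrees of freedom). Calls were made at p-values below 0.005 before adjustment and ratios over 2-fold (over 1.5-fold at 1 mM), the thresholds of the study's methods. Their Rosetta error model was not run. Times and concentrations were compared by contrasts at a Benjamini-Hochberg adjusted p under 0.05 over all probes. The labels do not say that the replicates came from separate experiments beyond their pools. The number of arrays limits the precision.

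Probes were named through their accessions in RefSeq tables (GRCm38.p6): 22072 by accession, 10 by symbol and 65 by synonym. Each gene of a list was read by its brightest probe. Up to 5 called genes of each list were named by the size of their log2 ratio, with the 15 largest increases and 15 largest decreases over all genes, the 5 largest differences from 8 h in each direction, and the genes the study follows in testis and in qPCR. Further genes, such as those on dim probes or without a call, were chosen after their values were seen. The members and lists were chosen with earlier results of these data known. A lower bound on a fold used, on each array, the higher of the dimmest signal well above background and the probe's own. The alternatives were normexp (offset 50) with loess, the deposited ratios, median centring, the filter on dim probes, outlier spots kept, replicate number or slide as a block, fewer arrays in the fit, other thresholds, another probe rule, and each array left out. A few genes of the lists are counted but not reported here by name. The scripts were tested on simulated data.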

Additional observations from a re-analysis of the deposited data

Results flagged for a closer look

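The following differences are given because both arrays of one treatment moved one way and both of the other the opposite way, with calls on each side and a contrast that passed by limma. Fmo2 differed by 2.67 between 24 h and 3 h at 5 mM (adjusted p = 0.00135) and by 3.70 between 24 h and 8 h (adjusted p = 0.00128). Btc differed from 3 h by 3.04, Lum by 3.43 and Iigp1 by 3.25, each lower than control at 3 h and higher at 24 h. The other probe of Btc gave 0.16 at 24 h. Gsta2 differed from 8 h by 3.20, from below control to above it, and Mpp4 by -3.88, from above control to below it. Between 5 mM and 1 mM at 24 h, Fam180a differed by -4.02 (adjusted p = 9.01e-05), Mmp3 by -3.53 and Col14a1 by -3.12, all higher than control at 1 mM and lower at 5 mM.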

How the results depend on the processing

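The 2315 calls (1586 up, 729 down) stayed within 1.5 times that count under all alternatives but normexp with loess, which gave 881 (675 up, 206 down). It called 874 of the same probes (37.8%), and 7 of the 2315 turned sign. The offset of 50 draws ratios of dim probes towards 0 by construction. Without 1 array at 5 mM 24 h the calls ranged from 2055 to 2081, the increases from 1358 to 1372 and the decreases from 683 to 723.

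The contrasts depended more on the setting. Against 8 h (3670), 3 h (6510) and 1 mM (3462), centring each array on its median gave 1332, 3932 and 1525. The deposited ratios gave 5571 against 8 h and 5413 against 1 mM, and probes well above background alone gave 5722 and 5396. The 6 arrays at 5 mM gave 133 against 8 h and 2188 against 3 h. Leaving out 1 array gave 960 to 1263 against 8 h, 2883 to 4412 against 3 h and 816 to 1011 against 1 mM. The cause was not tested.

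With the replicate number as a block the calls were 2342 (1610 up, 732 down), and the contrasts 7413, 10570 and 7210. Replicate number is also dye orientation. Deviations of same-numbered arrays correlated above 0.1 in 14 of 15 pairs of treatments (0.075 to 0.515; 0.275 to 0.506 for pairs with 5 mM 24 h), so most same-numbered arrays deviated together. The fit without the block was kept as the main one because the rule asked for every pair to be over 0.1, and 1 was not.

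Of the values of named genes under the alternatives, 1659 kept direction and side of the threshold, 150 lost the call and 1 turned: Cyp17a1, not called, gave -0.342 without replicate 2 and 0.0194 without replicate 1. Of list counts 397 stayed within 1.5 times and 83 did not. Probes near background limit the folds: neither control channel stood well above background in 458 of the called increases, and neither MAA channel in 196 of the decreases.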
